A study of Mus musculus with 8 samples.

Results

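The skeletal muscle transcriptome of 8 male C57BL/6J mice was examined for 9 genes of the thin filament, the slow and fast forms of the 3 troponin subunits and the 3 striated-muscle tropomyosins. These were Tnnt1 and Tnnt3 (troponin T), Tnni1 and Tnni2 (troponin I), Tnnc1 and Tnnc2 (troponin C), and Tpm1, Tpm2 and Tpm3. They were taken by name from the 55487 genes of the deposited table, and each of the 9 reached 10 counts in all libraries. The mice were 10 weeks old, both hindlimbs were held in casts for 8 days, and K14Q MOTS-c was injected intraperitoneally at 15 mg/kg/day in split doses. MOTS-c is a short peptide encoded in the mitochondrial 12S rRNA gene, and K14Q is its form with glutamine in place of a lysine. All 8 mice belong to this 1 condition, so immobilization, the peptide and their absence cannot be compared here, and the values below describe variation between treated mice. The sample labels name vastus lateralis as the tissue, whereas the study's design text and methods name gastrocnemius. Libraries held poly-adenylated RNA and between 23985356 and 33012497 counts each.

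Muscle contracts when calcium binds troponin C, which loosens the grip of troponin I on actin, while troponin T ties the complex to tropomyosin, the coiled-coil rod that covers the myosin-binding sites of the filament. Vertebrates carry separate genes for slow-twitch and fast-twitch fibres. Slow fibres use Tnnt1, Tnni1, Tnnc1 (shared with heart) and Tpm3, fast fibres use Tnnt3, Tnni2, Tnnc2 and Tpm1, and Tpm2 encodes beta-tropomyosin, which pairs with either alpha chain. The mouse gastrocnemius and vastus lateralis are both predominantly fast muscles, and the proportion of slow forms is a common readout of fibre type.

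The fast genes were among the most abundant in the muscle, with Tnnt3 at rank 13 of all genes by mean normalized count, and the slow genes lay far below them. The 9 genes took between 2.12% and 3.80% of all counts of a library. The fast forms of the 4 pairs accounted for 1.95% to 3.52% of the counts, and the slow forms for 0.0137% to 0.0271%. Muscle fibre markers were high in every library, at a sum of 431601 to 662774 normalized counts for Ckm, Acta1, Des and Mb. This sum was lowest in mice 3 (431601) and 4 (462311), the mice low in the fast genes, against 523792 or more in the others. The summed level of 4 macrophage markers was highest in mouse 4, at 2440 normalized counts. In mouse 3 it was 1713, within the 941 to 1781 of the others. The part of either marker set in the fast-gene levels was not tested. Of the 4 heart muscle markers, Myl7 was at 0 in all 8 libraries, Nppa had at most 0.917 and Tnni3 at most 10.8 normalized counts, while Myh6, whose sequence is close to that of slow Myh7, ran from 669 to 1720. Normalized counts are the authors' values, the count divided by a size factor of the library.

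Among the fast genes, Tnnt3, fast troponin T, had the highest level. It ranged from 251891 normalized counts in mouse 4 through a median of 335022 to 446660 in mouse 8, with a mean of 335729 ± 67258 (SD, n = 8). Tnni2, the fast inhibitory subunit, ranged from 77038 in mouse 3 to 145369 in mouse 8 around a median of 105866. Tnnc2, the fast calcium sensor, ranged from 56767 in mouse 3 to 136050 in mouse 8 around a median of 86632. All 3 were lowest in mice 3 and 4 and highest in mouse 8. Tpm1, alpha-tropomyosin, varied most of the fast genes, from 116330 in mouse 3 through a median of 211473 to 327724 in mouse 8, a 2.82-fold range. Its coefficient of variation between mice was 36.5%, against 20.0% for Tnnt3, 22.6% for Tnni2 and 29.3% for Tnnc2. Tpm2 ranged from 37666 in mouse 3 to 76229 in mouse 8 around a median of 54889.

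The slow genes formed a much lower tier. Tnnt1, slow troponin T, ranged from 970 normalized counts in mouse 3 through a median of 1309 to 2464 in mouse 8, with a mean of 1517 ± 543 (SD, n = 8). Tnni1, the slow inhibitory subunit, was the lowest of the 9, ranging from 307 in mouse 4 through a median of 417 to 837 in mouse 1. Tnnc1, the slow and cardiac calcium sensor, ranged from 519 in mouse 4 to 1294 in mouse 8 around a median of 726. Tpm3, which encodes slow alpha-tropomyosin, ranged from 2089 in mouse 3 to 3695 in mouse 8 around a median of 2443. Tpm3 and Tpm1 also encode non-muscle isoforms, and the gene counts hold all of them, so the alpha-tropomyosin values are those of whole genes. Mice 1 and 8 held the highest and the next value of all 4 slow genes. In bulk tissue a smaller number of slow fibres and less slow RNA per fibre cannot be told apart.

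All 9 genes varied more between mice than a typical gene of the same muscle. The coefficient of variation was between 20.0% and 39.5% with a median of 29.3%, against a median of 15.6% over 15135 genes that reached 10 counts in each library. Among the 3501 of these whose mean reached 1000 normalized counts, the median was 12.6%, and the 7 members with such a mean lay between the 83.0th percentile (Tnnt3) and the 97.2nd (Tpm1). Tnni1 and Tnnc1, at 39.5% and 36.7%, were below that mean. Other contractile and calcium-handling genes were mixed. Spreads of this size were seen in some, such as Casq1 (46.5%), Pvalb (39.5%), Myl2 (37.7%), Myl3 (32.5%) and Myh4 (28.9%). Others lay below the lowest of the 9, such as Mybpc1 (11.6%), Myh1 (12.6%), Atp2a2 (14.7%), Acta1 (17.6%), Mylpf (17.9%) and Atp2a1 (18.2%). Counting error was small beside the spread of the 9 genes, at 5.99% for the 279 counts of Tnni1 in its lowest library and 0.21% for Tnnt3. Removing the trend of each library on transcript length left the spread between 18.3% and 40.6%.

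**Figure D1:**
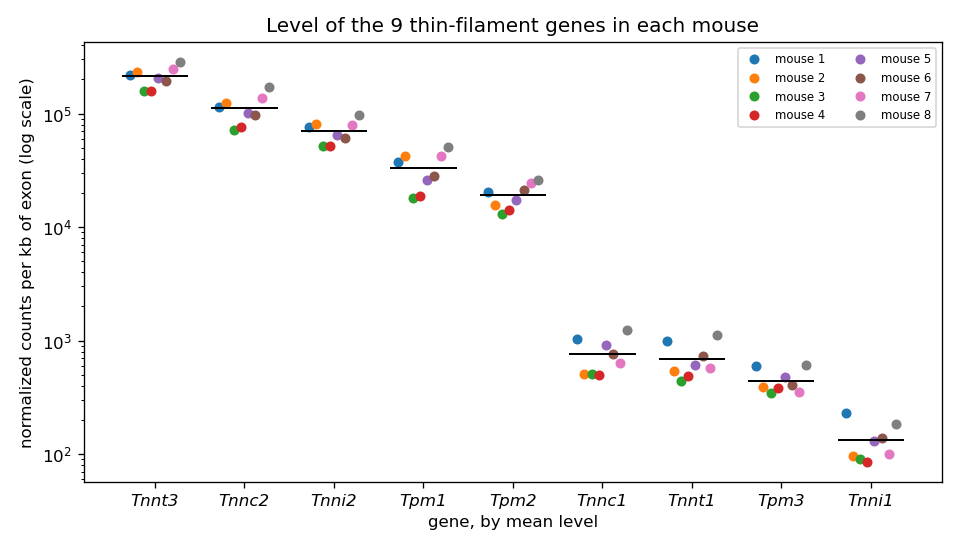
Normalized counts per kb of exon (log axis) for each of the 9 genes, ordered by mean; each point is a mouse and each bar the mean of 8. The 5 genes on the left lie at 12948 per kb or more in every mouse and the 4 slow genes at 1243 per kb or less.

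Levels of different genes were compared per kilobase of annotated exon. The order was Tnnt3, at a mean of 212084 ± 42488 normalized counts per kb (SD, n = 8), then Tnnc2 at 111648, Tnni2 at 70590, Tpm1 at 32962 and Tpm2 at 19058. The slow genes followed, with Tnnc1 at 761 ± 279, Tnnt1 at 688 ± 246, Tpm3 at 445 ± 105 and Tnni1 at 132 ± 52.2 (SD, n = 8). Of the 8 pairs of neighbours in this order, 7 differed in the same direction in all 8 mice (exact paired sign-flip test, two-sided, adjusted p = 0.0089 for each over the 8 pairs, from 0.0078, the smallest p that 8 mice can give). The gap between Tpm2 and Tnnc1, which separated the tiers, was 4.69 ± 0.35 on the log2 scale (SD, n = 8). The exception was Tnnc1 above Tnnt1, a log2 difference of 0.14 ± 0.20 seen in 7 of 8 mice (exact sign-flip test, adjusted p = 0.055). Neighbours of similar level depended on the length used. With the longest coding transcript in place of the exon union, Tnnc2 fell below Tnni2 by 0.13 and Tnnc1 below Tnnt1 by 0.39 on the log2 scale, and the call between Tnnt1 and Tpm3 was lost (log2 difference 0.20, exact sign-flip test, adjusted p = 0.086).

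The slow share of a subunit, the slow gene's level per kb over the sum of slow and fast, lay below 2% for every subunit in every mouse, but with the longest coding transcript length that of alpha-tropomyosin was 2.27%, 2.38% and 2.22% in mice 3, 4 and 5. It was 0.321% ± 0.0807 for troponin T, 0.187% ± 0.0589 for troponin I, 0.687% ± 0.180 for troponin C and 1.45% ± 0.442 for alpha-tropomyosin, Tpm3 over Tpm3 and Tpm1 (SD, n = 8 mice). In troponin T the share ran from 0.229% in mouse 2 through a median of 0.302% to 0.453% in mouse 1. In troponin I it ran from 0.117% in mouse 2 through 0.182% to 0.302% in mouse 1, the widest of the 3 troponin ranges at 2.57-fold. In troponin C it ran from 0.403% in mouse 2 through 0.715% to 0.891% in mouse 5. In alpha-tropomyosin it ran from 0.822% in mouse 7 through 1.51% to 1.97% in mouse 4. Mice 2 and 7 had the lowest pair of shares in all 4 subunits; the slow genes averaged -0.33 and -0.25 and the fast genes 0.27 and 0.32 there, as log2 deviations from the mean over mice. No share was related to library depth over 5 relations tested (Pearson's r between -0.013 and 0.364, Spearman's rho between -0.024 and 0.619, exact permutation, adjusted p = 0.99 for each r), and the labels give no batch.

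**Figure D2:**
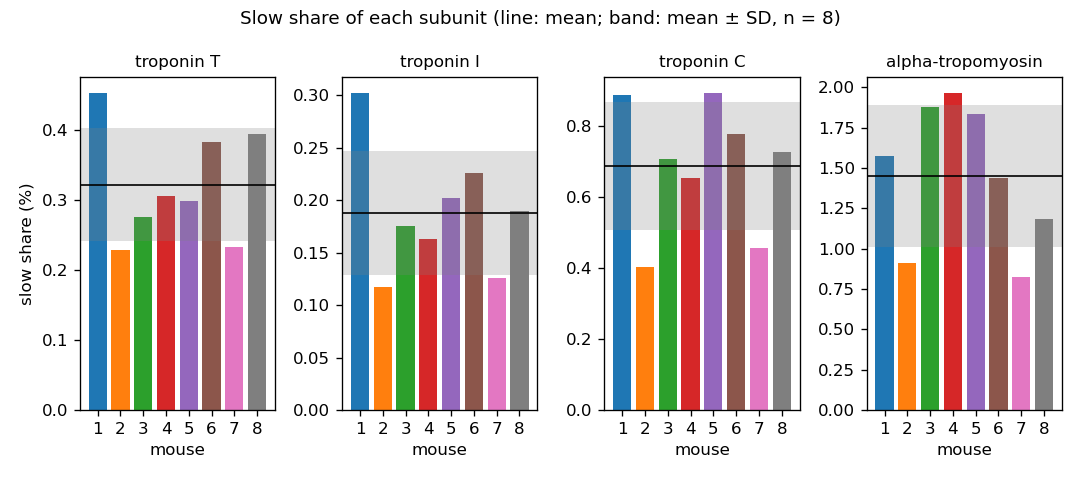
Slow share in percent (slow gene over slow plus fast, per kb of exon) of troponin T, I and C and alpha-tropomyosin in each of 8 mice, each panel with its own axis from 0; line and band are mean ± SD. Mice 2 and 7 are lowest in each panel, and the highest is mouse 1, 1, 5 and 4.

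As counted, the shares differed between subunits of the same filament. In all 8 mice the order was troponin I below troponin T below troponin C below alpha-tropomyosin. All 6 pairs passed (exact paired sign-flip test, two-sided, adjusted p = 0.0078 over the 6 pairs, the smallest p that 8 mice can give). This p measures agreement between mice, and a counting bias fixed for a gene would give the same sign in every mouse. The overlap of Tnnc2 with Ube2c and the near copy of Tpm3, given below, could bias the order in this way. So could the non-muscle isoforms of Tpm1 and Tpm3, and their part was not tested. The slow share of troponin T exceeded that of troponin I by 0.134 ± 0.0375 percentage points, troponin T minus troponin C was -0.365 ± 0.131, and troponin C minus alpha-tropomyosin was -0.765 ± 0.345 percentage points (SD, n = 8 mice). The step between troponin I and T was not seen without the length correction (exon unions of 3600 and 1497 bases for Tnni1 and Tnni2, and 2204 and 1583 for Tnnt1 and Tnnt3). With reads uncorrected for length, both shares were near 0.45% (0.450% and 0.447%), and the difference was -0.002 percentage points (exact sign-flip test, adjusted p = 0.91). With the longest coding transcript length the troponin I share was 0.301% and the troponin T share 0.455%.

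The slow share of troponin I varied with those of troponin T and troponin C across mice. The fast genes of the 3 troponins varied together (Pearson's r of 0.984 to 0.996 for log2 levels). A relation between shares can therefore come in part from their near-common denominator, which the permutation test does not allow for. Among the 10 pairs of 5 shares, the fifth being Myh7, the slow myosin heavy chain, among the 4 adult heavy chains, 3 passed. They were troponin T with I (Pearson's r = 0.903, exact permutation, adjusted p = 0.011; Spearman's rho = 0.833, adjusted p = 0.077; n = 8), troponin I with C (r = 0.865, exact permutation, adjusted p = 0.021; rho = 0.929, adjusted p = 0.022) and troponin C with Myh7 (r = 0.858, exact permutation, adjusted p = 0.028; rho = 0.690, adjusted p = 0.17). Without the 2 mice farthest from the median, r was 0.914, 0.886 and 0.271, so the relation to Myh7 rested on those mice. Troponin T with C had r = 0.749 (exact permutation, adjusted p = 0.081). Alpha-tropomyosin passed with none of the 3 troponin shares (r from 0.260 to 0.683, exact permutation, adjusted p = 0.52 to 0.11). Its r with troponin C, the highest of these, was -0.13 without the 2 mice farthest from the median of the troponin C share. The other pairs with Myh7 had r from 0.594 to 0.719 (exact permutation, adjusted p = 0.15 to 0.081). On the log2 ratio of slow to fast in place of the share, 6 of the 10 pairs passed. Leaving out mouse 1, 2 or 7 left 0 of the 10 pairs of shares past the threshold, with r of 0.829, 0.875 and 0.880 for troponin T with I. The Myh7 share itself was 0.245% ± 0.0539 (SD, n = 8 mice), and it too was lowest in mouse 2, at 0.140%.

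The total over slow and fast forms was compared between subunits, since an assembled troponin complex holds a single T, I and C. Troponin T transcripts outnumbered troponin C by 1.94 ± 0.179 and troponin I by 3.03 ± 0.127 per kb, and troponin I was 0.640 ± 0.0515 of troponin C (SD, n = 8 mice). The ratio of troponin T to I stayed between 2.85 and 3.17 in the 8 mice, while Tnnt3 ranged 1.77-fold and Tnni2 1.89-fold. With the longest coding transcript length the ratio of I to C was 1.09 ± 0.0877 and that of T to C 2.49 ± 0.229, so the ratios depended on the length used. Within the tropomyosins, Tpm1 made up 61.8% ± 5.60, Tpm2 37.3% ± 5.47 and Tpm3 0.895% ± 0.228 of the level per kb (SD, n = 8 mice). With the longest coding transcript length these were 72.5% ± 4.65, 26.2% ± 4.42 and 1.28% ± 0.344. The Tpm1 part was highest in mouse 2, at 72.5%, where Tpm2 was lowest at 26.8%. Smooth muscle also expresses Tpm1 and Tpm2, and the summed level of 5 smooth muscle and pericyte markers ran from 7016 in mouse 8 to 11836 normalized counts in mouse 1; its part in the tropomyosin levels was not tested.

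**Figure D3:**
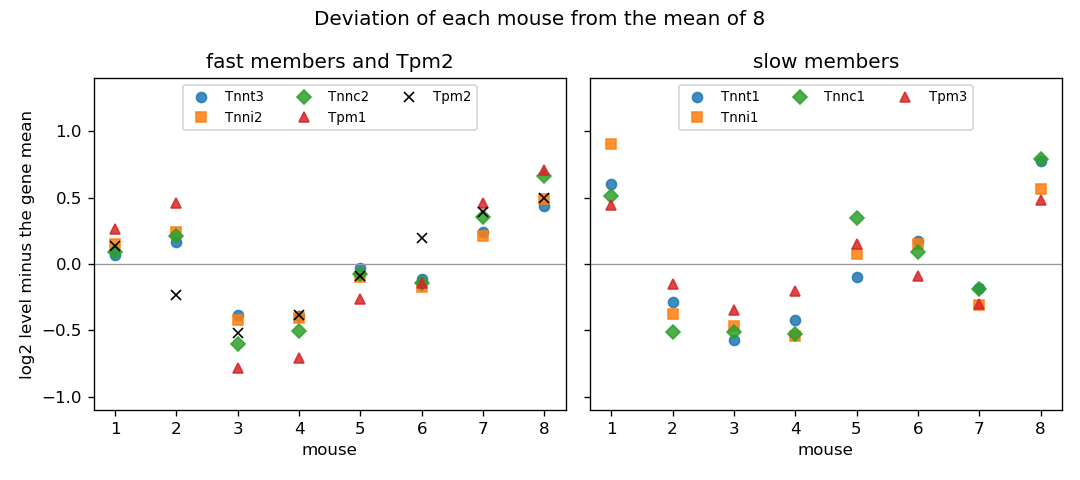
Log2 level of each gene in each of 8 mice, relative to the gene's own mean, for the fast genes with Tpm2 (left) and the slow genes (right). The fast genes are low in mice 3 and 4 and high in mouse 8, and the slow genes are high in mice 1 and 8 while in mice 2 and 7 they lie below their mean where the fast genes lie above it.

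Across mice the levels fell into a fast block and a slow block. The fast members Tnnt3, Tnni2, Tnnc2 and Tpm1 had Pearson's r of 0.975 to 0.996 over their 6 pairs, and the slow members Tnnt1, Tnni1, Tnnc1 and Tpm3 had r of 0.909 to 0.943. Between the blocks, the 16 pairs had r of 0.501 to 0.686. Tpm2, which serves both fibre types, lay between them, with r of 0.764 to 0.843 to the fast and 0.532 to 0.782 to the slow members. Tnnt3, Tnnt1 and the other members were each correlated with 10012 further genes that had at least 100 counts in each library, so each r could be ranked. Tnnc2 was the closest of all 10012 genes to Tnnt3 (r = 0.996, exact permutation, adjusted p = 0.055 over all genes; rho = 0.976, unadjusted p = 0.0004), Tnni2 was rank 3 (r = 0.987, exact permutation, adjusted p = 0.071; rho = 0.952, unadjusted p = 0.0011) and Tpm1 rank 9 (r = 0.975, exact permutation, adjusted p = 0.071; rho = 0.929, unadjusted p = 0.0022). Over all genes, 0.00999% (1 of 10012) were called as positively related to Tnnt3, namely Stac3, and 4 as negatively related (Ptcd2, Gcn1l1, Zfp9 and Cdh15), and none of the members was among them; these 5 names were chosen after their values were seen. For Tnnt1, Tnni1 was rank 2 (r = 0.943, rho = 0.952), Tnnc1 rank 5 (r = 0.921, rho = 0.905) and Tpm3 rank 9 (r = 0.909, rho = 0.905), each r with an adjusted p = 0.75 over all genes by exact permutation (unadjusted p = 0.0011, 0.0046 and 0.0046 for rho). Over all genes, 0% (0 of 10012) were called as positively related to Tnnt1, and 342 genes (3.4%) had a positive r with an unadjusted exact permutation p under 0.05. Without the 2 mice farthest from the median of Tnnt1, r was 0.898 with Tnni1, 0.782 with Tnnc1 and 0.580 with Tpm3, and without those farthest in Tnnt3, r was 0.997, 0.973 and 0.966 with Tnnc2, Tnni2 and Tpm1. The 3 genes nearest to Tpm3 of all 10012 were Tnni1, Tnnc1 and Tnnt1, with r of 0.923, 0.915 and 0.909. None of these passed over all genes, and without the 2 mice farthest in Tpm3 r was 0.734, 0.784 and 0.580.

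**Figure D4:**
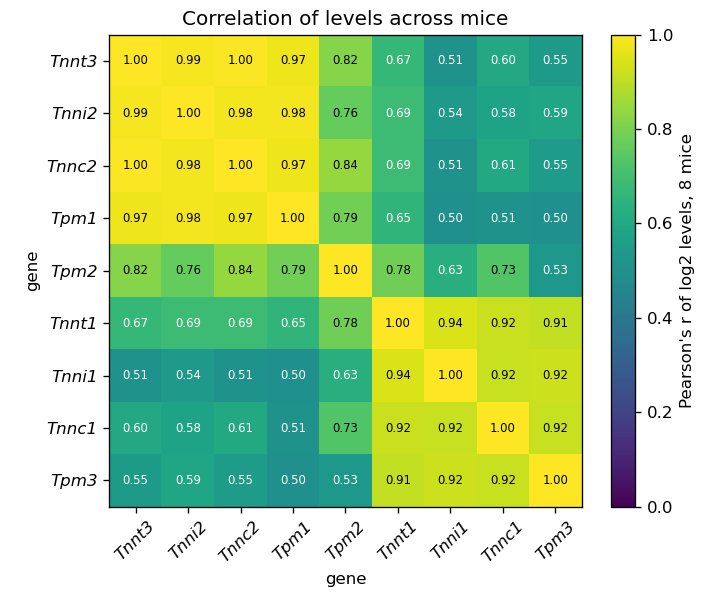
Pearson's r of log2 normalized counts over 8 mice for each pair of the 9 genes, fast genes first, then Tpm2, then slow genes. The fast block runs from 0.975 to 0.996, the slow block from 0.909 to 0.943, and pairs across the blocks from 0.501 to 0.686.

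Mouse 8 also stood apart from the other libraries by transcript length. The median log2 deviation of genes with transcripts under 1500 bases exceeded that of genes of at least 5000 bases by 0.364 in mouse 8, against -0.199 to 0.091 in the other 7 mice, and mouse 8 was highest in 8 of the 9 genes. With the length trend removed from each library the median r was 0.978 within the fast block, 0.923 within the slow block and 0.546 between them, against 0.984, 0.918 and 0.567 before. Leaving out each mouse moved the median r between the blocks from 0.352 (without mouse 8) to 0.717 (without mouse 2) and 0.711 (without mouse 7), so the separation was smaller without mice 2 and 7 and larger without mouse 8. The jackknife standard error of that median was 0.312. Within the blocks the range was 0.979 to 0.988 (fast) and 0.891 to 0.940 (slow). Scaled by library totals, the median r was 0.960, 0.888 and 0.371 for the fast block, the slow block and between them. The summed markers of macrophages (941 normalized counts in mouse 8 against a median of 1691), tendon (881 against 4052), endothelium (2645 against 3231), adipocytes (175 against 451) and blood (5962 against 8909) were also lowest in mouse 8, and their part was not tested. Fibroblast markers ran from 9473 to 17618 and Schwann cell markers from 1332 to 3442.

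The non-members whose levels followed a member most closely differed between the blocks. For the fast genes they included Stac3, a partner of the voltage-sensing calcium channel (r = 0.987 with Tnnt3, 0.980 with Tnnc2 and 0.984 with Tpm1), and Trdn, triadin of the calcium release complex (r = 0.981 with Tnnt3). Metap2, which removes the first methionine of proteins, had r = 0.988 with Tnnt3. For Tnni1 the nearest non-member was Myh7 (r = 0.934), followed by the pseudogene Gm11841 (0.924) and Myh6 (0.920). For Tnnt1 they were Gm11841 (0.946), Myh3, embryonic myosin (0.928), and the pseudogene Gm12623 (0.922). Tnnc1 was followed by Bsg (0.983), the oxygen-binding Mb (0.955) and Ecsit (0.946), and Tpm3 by Cs, citrate synthase (0.884), and Pdlim5 (0.883). Tnni2 was followed by Rnf34 (0.981), Fez2 (0.979) and Sms (0.975). Tpm1 was nearest to the pseudogene Gm11889 (0.996), which shares no 50-base word with it, and Tpm2 was nearest to Akr1b10 (0.988), Itgb1bp2 (0.973) and Bag1 (0.965). With 8 mice and 10012 genes the highest r is large by selection, so no p is given for these.

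Other genes of the pathway were read from fixed lists. All 8 other fast-fibre genes had a positive r with Tnnt3, with a median of 0.856 against -0.039 over all genes, from 0.779 for Myoz1 to 0.962 for the calcium buffer Pvalb, and 0 of 8 passed over all genes (8 of 8 at an unadjusted exact permutation p under 0.05, which 8.5% of all genes reached with a positive r). With Tnnt1 the same fast list had a median r of 0.717 (8 of 8 positive, 0 passed, 4 unadjusted, against 3.4% of all genes). The 6 other slow-fibre genes had a median r of 0.580 with Tnnt1 against -0.054 over all genes, from 0.415 for Myoz2 to 0.841 for the light chain Myl3, and 0 of 6 passed (1 of 6 unadjusted), so the fast list had the higher median with Tnnt1. With Tnnt3 the slow list had a median r of 0.172 (5 of 6 positive, 0 unadjusted). Of the 6 myosin heavy chains, all had a positive r with both Tnnt1 (median 0.627) and Tnnt3 (median 0.687), and 0 passed with either (2 and 3 unadjusted, against 3.4% and 8.5% of all genes). The 10 other thin-filament genes were mixed, and the 9 with enough counts had a median r of -0.196 with Tnnt3 (4 of 9 positive). The pointed-end caps Tmod1 and Tmod4 had r of 0.870 and 0.854 with Tnnt3, while Neb, the nebulin ruler, had -0.307 with all 8 mice and 0.471 without mouse 8, where it was lowest (240752 normalized counts against 341390 to 516905), and 0 of the 9 with enough counts passed (3 unadjusted, against 8.5% of all genes). Of 14 regulators of fibre type, 13 had enough counts and had a median r of 0.183 with Tnnt3 and 0.068 with Tnnt1. The paralogues outside the 9 were low. Cardiac Tnnt2 ran from 94.7 to 272 normalized counts, cardiac Tnni3 from 0 to 10.8 and non-muscle Tpm4 from 375 to 624.

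The 9 genes lie on 7 chromosomes of GRCm38. Tnni2 (chr7:142441808-142444410, plus strand) and Tnnt3 (chr7:142498836-142516009, plus strand) are neighbours 54.4 kb apart, so the fast I and T genes form a pair. The slow Tnnt1 (chr7:4504570-4516382, minus strand) lies 1.9 kb from the cardiac Tnni3, and the slow Tnni1 (chr1:135779434-135810989, plus strand) lies 25.4 kb from the cardiac Tnnt2. Both genes of the fast pair were abundant, whereas Tnni3 had at most 10.8 normalized counts beside Tnnt1, which had at least 970, and Tnnt2 at most 272 beside Tnni1, which had at least 307. The others were Tnnc1 (chr14:31208312-31211729, plus strand), Tnnc2 (chr2:164777161-164779967, minus strand), Tpm1 (chr9:67022590-67049406, minus strand), Tpm2 (chr4:43514711-43523765, minus strand) and Tpm3 (chr3:90072649-90100902, plus strand).

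No pair of the 9 genes shares a run of 50 bases in their annotated transcripts, and the read length is not given in the sources used here. The longest run shared by the coding sequences of each slow and fast pair, and of Tpm2 with Tpm1, is shown in capitals, with flanking bases in lower case. It marks where the forms are hardest to tell apart in the coding sequences compared, a single one per gene. In troponin T it is 16 bases, in a stretch rich in glutamate codons.
Tnnt1: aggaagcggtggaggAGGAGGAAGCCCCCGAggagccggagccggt
Tnnt3: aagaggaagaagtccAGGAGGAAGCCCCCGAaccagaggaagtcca
In troponin I it is 22 bases.
Tnni1: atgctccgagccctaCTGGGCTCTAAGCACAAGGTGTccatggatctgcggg
Tnni2: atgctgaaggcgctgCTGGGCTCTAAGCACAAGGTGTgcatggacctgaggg
In troponin C it is 21 bases.
Tnnc1: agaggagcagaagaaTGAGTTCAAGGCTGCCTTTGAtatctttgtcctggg
Tnnc2: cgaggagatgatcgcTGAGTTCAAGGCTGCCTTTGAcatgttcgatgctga
In alpha-tropomyosin it is 21 bases.
Tpm3: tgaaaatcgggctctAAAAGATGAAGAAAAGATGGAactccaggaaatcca
Tpm1: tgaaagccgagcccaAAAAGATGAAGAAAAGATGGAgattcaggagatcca
Of the pairs compared, Tpm2 and Tpm1 share the longest run, 35 bases from the start codon, and Tpm2 was not compared with Tpm3.
Tpm2: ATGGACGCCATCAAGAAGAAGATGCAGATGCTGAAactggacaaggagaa
Tpm1: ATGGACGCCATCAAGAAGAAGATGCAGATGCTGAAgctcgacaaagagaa
Sequences are from the longest coding transcript of each gene in GENCODE release M21 on GRCm38.

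Outside the 9 genes, copies and overlaps could have taken or added reads. Tpm3-rs7, a near copy of Tpm3, shares 69.4% of its 50-base words with Tpm3, which is 23.2% of the words of Tpm3, and it had a mean of 562 normalized counts, 20.7% of Tpm3, so the level and slow share of Tpm3 are uncertain by how such reads were assigned. Ube2c overlaps Tnnc2 on the opposite strand and covers 47.9% of its 50-base words, with a mean of 231 normalized counts, 0.259% of Tnnc2. If reads in such overlaps were dropped, Tnnc2 was undercounted by an amount that cannot be known here, and the troponin C share and ratios carry this limit. Prr33 overlaps Tnnt3 on the opposite strand with a mean of 2967 normalized counts, 0.884% of Tnnt3, and the annotated transcripts of this pair share no 50-base word. Tnnc1 lies inside Nisch on the opposite strand, whose mean of 2225 normalized counts was 281% of Tnnc1, but the annotated transcripts of the pair share no 50-base word. Whether counting used strand is not given in the sources used here.

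Promoter windows are shown for the slow troponin genes, which moved together, and for Tnnc2 as a fast counterpart. The windows are the 250 bases before the start in RefSeq on GRCm38.p6, less bases annotated as exon, and were found for 7 of the 9 genes (9 starts, Tnnt3 and Tnni2 not matched). Capitals mark matches to CANNTG (E-box, the site letters of myogenic factors) or CATTCC (MCAT, those of TEAD factors) on either strand.
Tnnt1 (chr7:4516005-4516225, minus strand): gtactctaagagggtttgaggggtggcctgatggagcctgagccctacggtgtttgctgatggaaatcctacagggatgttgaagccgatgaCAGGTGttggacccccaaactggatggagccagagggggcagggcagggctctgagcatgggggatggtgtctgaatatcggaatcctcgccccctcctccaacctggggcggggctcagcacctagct
Tnni1 (chr1:135799171-135799401, plus strand): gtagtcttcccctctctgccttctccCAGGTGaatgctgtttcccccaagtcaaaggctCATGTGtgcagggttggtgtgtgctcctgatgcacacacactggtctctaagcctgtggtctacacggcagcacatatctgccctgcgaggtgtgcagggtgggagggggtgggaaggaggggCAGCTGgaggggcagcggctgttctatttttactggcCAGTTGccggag
Tnnc1 (chr14:31208062-31208311, plus strand): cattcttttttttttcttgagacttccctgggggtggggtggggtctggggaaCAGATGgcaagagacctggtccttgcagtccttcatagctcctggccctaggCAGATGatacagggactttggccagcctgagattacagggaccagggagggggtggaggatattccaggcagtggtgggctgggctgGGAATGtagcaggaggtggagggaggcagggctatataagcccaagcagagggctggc
Tnnc2 (chr2:164779742-164779867, minus strand): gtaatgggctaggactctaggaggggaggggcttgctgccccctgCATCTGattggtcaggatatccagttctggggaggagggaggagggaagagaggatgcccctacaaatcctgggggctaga
Motifs were counted in the full windows of 250 bases, with exon bases kept, as over all genes. An E-box was found in 9 of the 9 full windows, the 2 of Tnni1 overlapping, against 66.2% of 32851 windows of all genes. MCAT was found in 2 of 9 (Tnnc1 and Tpm1) against 12.6%, and TATAAA in 1 of 9 (Tnnt1) against 12.4%. In the windows less exon bases, Tpm1 and Tpm2 had no E-box, Tpm1 had no MCAT and Tnnt1 had no TATAAA. A match is a description of letters and not a bound site, and the windows hold slow and fast genes alike.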

How the data were processed

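Muscle poly-adenylated RNA of 8 mice was sequenced on an Illumina NextSeq platform. The authors checked reads with FastQC and fastp, mapped them with STAR to GRCm38 (GRCm38.p6 in the submitters' processing notes), counted genes with summarizeOverlaps and normalized with DESeq2; the annotation release, strand use and read length are not given in the sources used here. The deposited values are a signal, namely counts scaled by the size factor of each library: 100% of nonzero values were whole reads within a tolerance of 0.01 of a read, so the authors' counts were recovered. The design had assumed raw counts. Symbols, positions and lengths came from GENCODE M21, which held 55227 of 55487 genes. No pair of libraries was a repeat (chi-square per degree of freedom of at least 13.6 over 28 pairs).

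Shares used counts per kb of exon union. Tests were exact sign flips or exact permutations of 40320 pairings, two-sided, with Benjamini-Hochberg adjustment; log2 values used a pseudocount of 1. With 1 condition no count test between groups was run; edgeR 4.0.16 gave TMM factors only. Members and lists were chosen with earlier results of these data known. Named genes were the members, fixed lists of paralogues, thin-filament, fibre-type and regulator genes, overlapping genes and the 3 non-members with the highest r; some of these genes are not reported here. The alternatives were other lengths, TMM or library totals, medians, other filters and pseudocounts, log ratios and leaving out each mouse; correlations of levels among members, their scan over all genes and the length trend were chosen after seeing the data. Scripts were tested on simulated data. R 4.3.3 and Python 3.11.15 were used with scipy 1.17.1. WT and control libraries were not analysed here. Replicates are mice; counts lack molecular identifiers, so counting errors are lower limits.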

Additional observations from a re-analysis of the deposited data

Results flagged for a closer look

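Among 78 values tested for a mouse far from the other 7, 8 stood out, where chance gives about 1 in 20 tests, or 3.9. None of them was a level of the 9 genes or a slow share. Mouse 5 stood apart in 5 of the 8. Its summed level of Tnnt2, Tnni3 and Tpm4 was 874 normalized counts against 643 to 743 in the others, and its level of Klhl40, a stabilizer of thin-filament proteins, was 3622 against 2430 to 2860. The same mouse had 10453 for Tead1 against 4834 to 6642, 2135 for its cofactor Vgll2 against 865 to 1408, and 2903 for Ppargc1a, a coactivator of slow and oxidative fibres, against 1092 to 1722. The slow share of troponin C in mouse 5 was the highest of the 8 mice, at 0.891%, and its shares of troponin T (0.298%) and I (0.202%) lay near the means. Mouse 1 had nearly the same troponin C share, at 0.885%, with 1190 for Ppargc1a. In mouse 6, Actc1, cardiac alpha-actin, had 693 normalized counts against 81.4 to 302. In mouse 2, Vgll3 had 305 against 181 to 238, and in mouse 7 the summed Schwann cell markers had 3442 against 1332 to 1972.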

How the results depend on the processing

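Slow shares moved with the length used by more than their SD between mice in 5 cases. Without length correction the share was 0.447% for troponin T, 0.450% for troponin I and 0.892% for troponin C, and with the longest coding transcript it was 0.455% and 0.301% for troponin T and I. Leaving out each mouse gave 0.303% to 0.335%, 0.171% to 0.197%, 0.658% to 0.727% and 1.38% to 1.54% for troponin T, I, C and alpha-tropomyosin. The difference between troponin T and I was -0.002 percentage points without length correction and was not called there; the cause was not tested. The r of Neb with Tnnt3 turned from -0.307 to 0.471 without mouse 8 and lay between -0.561 and -0.285 when each other mouse was left out, an alternative chosen after seeing the data. In the order of levels, the longest coding transcript reversed Tnnc2 and Tnni2 (-0.13) and Tnnc1 and Tnnt1 (-0.39). Of 10 relations between shares, 3 passed, 6 passed on the log2 ratio of slow to fast, and 0 to 4 passed with a mouse left out. The median r within the fast block was 0.960 with library totals, and that between the blocks 0.371 against 0.567. Of the 27 closest non-members, 17 stayed with at least 10 counts in place of 100, and 21 with TMM factors. Levels and spreads of the 9 genes kept their values within the spread between mice under every alternative run. No paired analysis was possible because the 8 mice form a single group, so that no 2 groups share replicate numbers; the sign-flip tests pair genes or shares within a mouse. Depth limits Tnni1 most, with 279 counts in its lowest library.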
